A study of Mus musculus with 2 samples.

Results

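The Hox genes of all 4 clusters were compared between bone marrow mesenchymal stem/progenitor cells (MSPC) of Ptpn11+/+ and Ptpn11E76K/+ mice. Members were the genes whose symbol is Hox, a cluster letter a to d and a paralogue number. They came to 39 of the 35275 gene identifiers in the count table, 11 in HoxA, 10 in HoxB, 9 in HoxC and 9 in HoxD. The group was selected on these counts because the HoxB genes were lower in the mutant library, so the values below are a description and carry no test. Control cells came from Ptpn11+/+ mice and mutant cells from Ptpn11E76K/+ mice, all of the C57BL/6 strain and all carrying Nestin-Cre, a recombinase transgene driven by nestin regulatory sequence. Ptpn11 encodes the phosphatase SHP2, and E76K is an activating change. Marrow cells without CD45, Ter-119 and CD31 that stained for CD140 and Sca-1 were sorted fresh, and their polyadenylated RNA was sequenced. There is 1 library per genotype. The sources used here do not give the age and sex of the mice, whether animals were pooled or what share of the sorted cells had undergone Cre recombination.

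Hox genes encode homeodomain transcription factors that give cells of the embryo their position along the body axis and, for the later paralogues, along the limb. Genes of a cluster lie in a row in the order in which they are used from head to tail, and genes with the same number in different clusters are paralogues with overlapping functions. Adult stromal and skeletal cells keep much of the Hox pattern of the place where they arose. HOX proteins bind DNA with PBX and MEIS partners, Polycomb complexes keep silent Hox genes repressed, Trithorax complexes keep active ones open, and retinoic acid switches on the early members of the clusters.

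Sequencing gave 22328659 counts for the control and 18010963 for the mutant library. Levels are in CPM, counts scaled to library size, with TMM factors, per kilobase (kb) of transcript where genes are compared with each other. A ratio is that of the mutant to the control library with its 95% exact counting interval, which covers counting error only and says nothing of the spread between animals. A gene with at least 20 counts over both libraries was taken as measured. A call of higher or lower was made where all of the interval fell outside a 2-fold difference. Of 13142 measured genes, 8.29% were called lower and 6.98% higher. The median log2 ratio over all of them was 0.01. The genes behind the sort were present, with 2073 control and 1792 mutant counts of Pdgfra, 6075 and 3721 of Pdgfrb, and 2177 and 612 of Ly6a (Sca-1), while Pecam1 (CD31) had 5 and 2 and Ptprc (CD45) 1 and 12. Ly6a was called lower and Nes (5192 and 10785 counts) higher. Myeloid marker genes differed between the libraries. All 16 of the listed markers had a higher CPM in the mutant library, 10 of the 13 measured ones were called higher, and they summed to 14.7 CPM in control and 69.5 CPM in mutant cells. Of these, Ctss, C1qa, C1qb, C1qc, Itgam, Adgre1, Tyrobp, Laptm5 and Itgb2 were at 0 in the control library and none was at 0 in the mutant. Their part in the Hox values was not tested. In a bulk sample, fewer cells of a type and less RNA per cell cannot be told apart.

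The Hox genes with the highest levels in both libraries belonged to HoxC and HoxA. Of the 39 genes, 28 were measured. Hoxb1, Hoxb13, Hoxd1 and Hoxd12 had 0 counts in both libraries, so that at a floor of 3 counts their level could still reach 0.130 CPM (control) or 0.173 CPM (mutant). The other 7 below the minimum had 1 and 1 counts in control and mutant (Hoxa11), 7 and 1 (Hoxa13), 11 and 0 (Hoxb7), 12 and 2 (Hoxd3), 1 and 0 (Hoxd10), 1 and 0 (Hoxd11), and 3 and 1 (Hoxd13). In the control library the highest levels were those of Hoxc6 at 47.0 CPM per kb, Hoxc10 at 41.9, Hoxa10 at 28.5, Hoxc9 at 20.2 and Hoxa9 at 18.9. In the mutant library Hoxc10 came first at 34.7 CPM per kb, then Hoxc6 at 24.1, Hoxc13 at 18.8 and Hoxa10 at 15.9. Hoxc9 and Hoxc8 were both at 13.1 there, followed by Hoxd8 at 11.3 and Hoxa9 at 11.1. Hoxc6 and Hoxc10 thus changed places, and Hoxc13 stood higher in the mutant order than in that of the control. Summed over the 39 genes, the level was 255.6 CPM per kb in the control and 184.1 in the mutant.

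**Figure D1:**
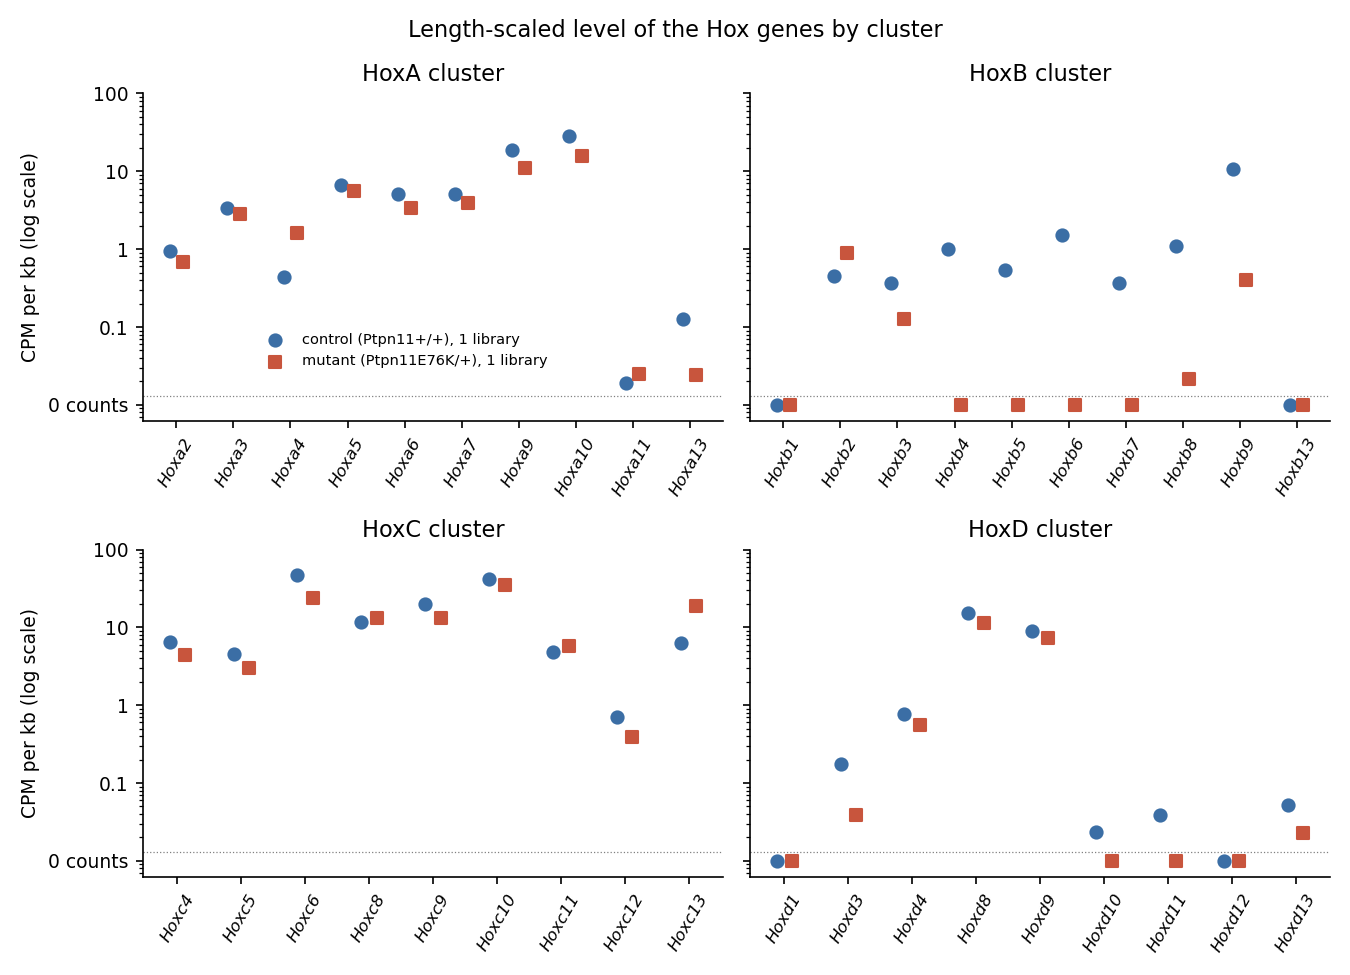
Level of the Hox genes described here in CPM per kb on a log axis, by cluster and in order of paralogue number, with circles for the control library and squares for the mutant library. Genes at 0 counts are drawn on the line labelled 0 counts, and the squares of Hoxb4, Hoxb5, Hoxb6 and Hoxb7 lie there while their circles lie between 0.368 and 1.54 CPM per kb.

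Among the 28 measured Hox genes, the mutant library gave 5 lower calls, 2 higher calls and 21 genes with neither. The group was chosen from this contrast, so nothing is read from those counts against the shares over all genes given above. Below a ratio of 1 stood 22 genes and above it 6, with a median log2 ratio of -0.51. Summed Hox counts of 12825 (control) and 6916 (mutant) gave a ratio of 0.717 (0.697 to 0.739). All 5 lower calls were HoxB genes, and the 2 higher calls were Hoxa4 and Hoxc13.

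**Figure D2:**
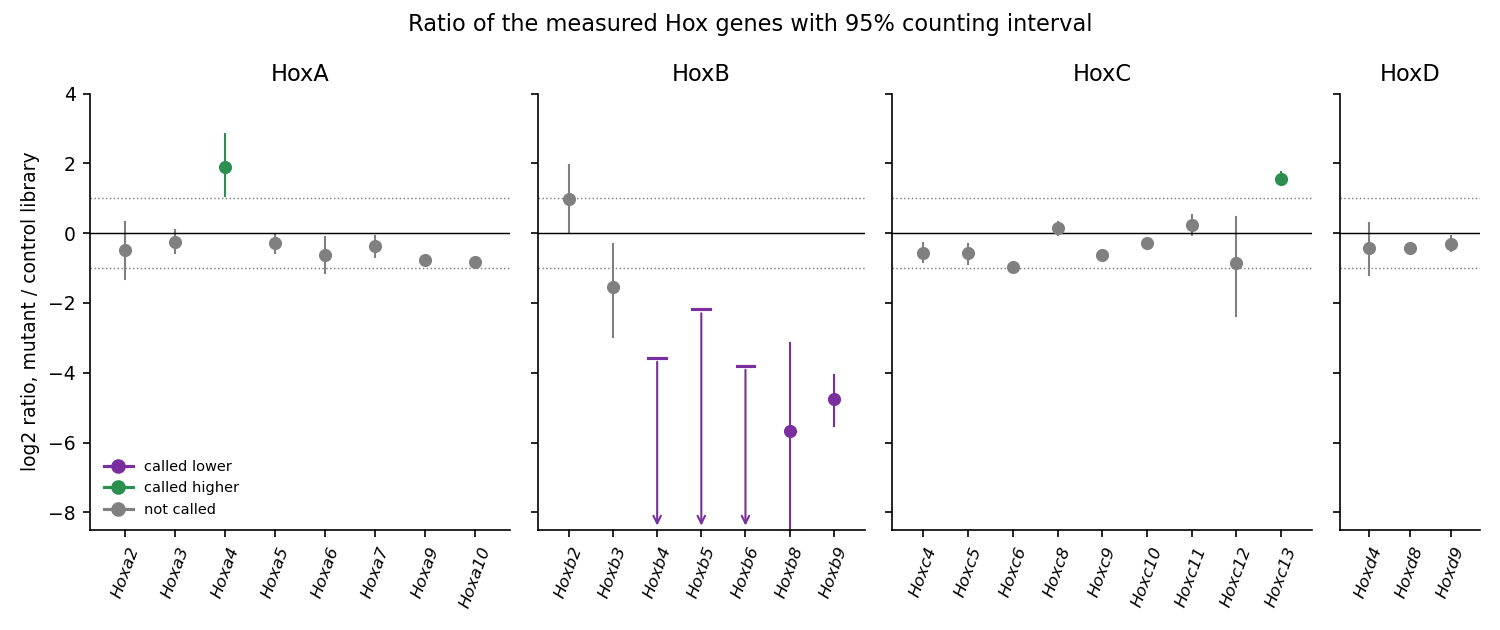
Log2 ratio of the mutant to the control library for the measured Hox genes described here, with vertical lines for the 95% counting interval and dotted lines at a 2-fold difference. For Hoxb4, Hoxb5 and Hoxb6, which had 0 counts in the mutant library, a horizontal tick marks the upper bound of the interval and an arrow runs downward from it, so that the marks of the 5 HoxB genes called lower lie below every point of the other clusters.

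In HoxB, the adjoining genes from Hoxb4 to Hoxb9 had few or no counts in the mutant library. Together these 6 genes had 877 control and 19 mutant counts, and their joint level was 34.7-fold lower (22.1 to 57.9). Hoxb9 (ENSMUSG00000020875), which acts with its paralogues in patterning the thoracic skeleton, was the main HoxB gene of the control library, with 644 counts against 18 in the mutant. Its level went from 10.8 CPM per kb to 0.402, a 26.9-fold lower value (16.9 to 45.7). Hoxb8 (ENSMUSG00000056648), known for holding myeloid progenitors in an immature state when it is overexpressed, had 68 control counts and 1 mutant count, and was 51.1-fold lower with a wide interval (8.87 to 2048.5).

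Between them and the anterior end of the cluster, 4 genes had no count at all in the mutant library. Hoxb4 (ENSMUSG00000038692), known for expanding blood stem cells when overexpressed, had 60 counts in the control. It was at least 11.9-fold lower by the bound of its exact counting interval. With the mutant library at the floor of 3 counts, the fold was 15.0. Hoxb6 (ENSMUSG00000000690) had 70 control counts and was at least 13.9-fold lower by its exact bound (17.5-fold at the floor). Hoxb5 (ENSMUSG00000038700), which is used as a marker of long-term blood stem cells, had 24 control counts. Its level was at least 4.52-fold lower by its exact bound (6.01-fold at the floor). Hoxb7 had 11 control counts, too few to be measured, and was at least 1.89-fold lower by its exact bound (2.76-fold at the floor). The antisense transcript gene Hoxb5os had 11 control counts and 0 mutant counts. Hoxb4, Hoxb5, Hoxb6 and Hoxb8 reached the minimum of 20 counts through the control library alone, so they could only have been called lower.

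Toward the anterior end of HoxB, Hoxb2 and Hoxb3 were not called, and their ratios lay on opposite sides of 1. Hoxb2, which patterns the hindbrain, had 17 control and 25 mutant counts (ratio 1.96, 1.02 to 3.86). Hoxb3, another hindbrain gene, had 27 and 7 counts, a 2.90-fold lower level (1.23 to 7.89) that was not called because its interval reached inside 2-fold. Their joint counts of 44 and 32 gave a ratio of 0.967 (0.594 to 1.56), a sum in which the opposite directions of Hoxb2 and Hoxb3 offset each other. The counts of these 2 genes are uncertain. Of the 50-base stretches of their longest transcripts, 57.3% (Hoxb2) and 68.7% (Hoxb3) also lie in the antisense gene Hoxb3os (16 and 10 counts), and the sources used here do not say whether counting used strand. The share found in any other gene was 0% for Hoxb7 and Hoxb8, 0.238% for Hoxb9, 0.477% for Hoxb4, 1.201% for Hoxb6 and 2.76% for Hoxb5.

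Over the whole cluster, 7 HoxB genes were measured, 5 of them lower and 2 uncalled, and the summed counts of 921 and 51 gave a 13.6-fold lower level (10.2 to 18.4). The median log2 ratio was -5.10 with a prior count of 0.5 and -3.91 with the genes at 0 set to the floor. HoxB made up 7.18% of all Hox counts in the control library and 0.737% in the mutant. Among all measured genes, 0.464% had a lower log2 ratio than Hoxb9, 0.289% a lower one than Hoxb8 and 0.0913% a lower one than Hoxb4, which is a description of where the members stand and follows from their choice.

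The promoters of Hoxb4 and Hoxb8 are shown because these genes moved together, each beside that of a paralogue from another cluster, Hoxc4 (ratio 0.680) and Hoxd8 (0.739). Each sequence is the 250 bases before the RefSeq start of the gene (build GRCm38.p6), read 5′ to 3′ on the plus strand, with CpG dinucleotides in capitals. The windows are chr11:96318017-96318266 for Hoxb4, chr11:96281655-96281904 for Hoxb8, chr15:103034145-103034394 for Hoxc4 and chr2:74704365-74704614 for Hoxd8.
Hoxb4: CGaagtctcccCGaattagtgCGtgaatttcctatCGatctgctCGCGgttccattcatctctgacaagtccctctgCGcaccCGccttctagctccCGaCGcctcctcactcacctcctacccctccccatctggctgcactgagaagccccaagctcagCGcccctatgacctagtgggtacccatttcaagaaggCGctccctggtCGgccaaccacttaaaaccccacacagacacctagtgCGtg
Hoxb8: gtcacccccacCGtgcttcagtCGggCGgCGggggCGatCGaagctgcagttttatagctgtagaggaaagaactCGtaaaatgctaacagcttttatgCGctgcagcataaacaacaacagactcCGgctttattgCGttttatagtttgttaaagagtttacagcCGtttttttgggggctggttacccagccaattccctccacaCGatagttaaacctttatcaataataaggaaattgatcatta
Hoxc4: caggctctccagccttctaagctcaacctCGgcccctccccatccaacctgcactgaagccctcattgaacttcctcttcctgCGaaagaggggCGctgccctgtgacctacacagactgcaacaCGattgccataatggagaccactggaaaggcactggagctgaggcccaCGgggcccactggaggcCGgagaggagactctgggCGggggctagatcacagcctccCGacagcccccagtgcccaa
Hoxd8: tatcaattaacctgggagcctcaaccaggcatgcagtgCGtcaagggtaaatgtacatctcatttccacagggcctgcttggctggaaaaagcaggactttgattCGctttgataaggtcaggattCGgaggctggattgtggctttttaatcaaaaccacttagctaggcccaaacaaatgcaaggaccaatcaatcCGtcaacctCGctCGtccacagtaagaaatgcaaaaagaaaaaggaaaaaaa
The Hoxb4 window held 14 CpG dinucleotides and the Hoxb8 window 12, against 8 in Hoxc4 and 6 in Hoxd8. Their GC content was 58% and 44.4% in the HoxB pair, 62% in Hoxc4 and 44.4% in Hoxd8, and the ratio of observed to expected CpG was 0.760 (Hoxb4), 0.974 (Hoxb8), 0.340 (Hoxc4) and 0.487 (Hoxd8). Over 32544 RefSeq windows of the same length, the median was 6 CpG, 52.4% GC and a CpG ratio of 0.378. RefSeq windows were found for 22 of the 39 Hox genes (24 windows), with a median of 12.5 CpG and a range from 2 to 35. Unmethylated CpG-rich promoters are the usual landing sites of Polycomb and Trithorax proteins, but neither methylation nor binding was measured here.

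Short motifs were searched on both strands of the same windows. TAAT, the core read by most homeodomains, was in 18 of the 24 Hox windows and in 54.8% of all windows, with 1 match in Hoxb4, 2 in Hoxb8, 1 in Hoxc4 and 2 in Hoxd8. The composite HOX-PBX motif TGATNNAT, which can overlap TAAT, was in 4 Hox windows and 7.66% of all windows. Of the 4 sequences shown, it had a match in Hoxb8 alone. The AP-1 motif TGANTCA, bound by factors at the end of the ERK pathway, was in 1 Hox window (Hoxd11) and 6.73% of all windows. CCAAT was in 14 Hox windows, Hoxb8 and Hoxd8 among them, and in 33.8% of all. A match is a run of letters and not a bound site.

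In HoxA, 7 of 9 measured genes had a ratio below 1, and none of these was called. By call, 0 were lower, 1 was higher and 8 were neither, with a median of -0.37 on the log2 scale and summed counts of 4049 and 1943 (ratio 0.638, 0.604 to 0.674). The abundant posterior members weighed most in that sum. Hoxa9, which with Meis1 drives some leukaemias, had 1410 and 624 counts, a 1.70-fold lower level (1.54 to 1.87). Hoxa10, a gene of the lumbar skeleton and proximal limb, had 1693 and 711, a 1.79-fold lower level (1.64 to 1.96).

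Of the middle HoxA genes, Hoxa5, which patterns the neck-thorax border and the lung, had 293 and 180 counts (ratio 0.817, 0.675 to 0.987). Hoxa6 had 104 and 51 (0.652, 0.457 to 0.920) and Hoxa7 240 and 139 (0.770, 0.621 to 0.953). None of these 3 intervals reached 1, and none lay wholly beyond 2-fold. Hoxa4, a gene of the cervical vertebrae, went the other way, from 16 control to 45 mutant counts, and was 3.74-fold higher (2.07 to 7.09). That call (ENSMUSG00000000942) sits just past the threshold and was lost under 5 of the 8 alternative settings. Of its 50-base stretches 13.3% also lie in the antisense gene model Gm29430.

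Toward the anterior end of HoxA, Hoxa2, which patterns the second pharyngeal arch, had 39 and 21 (0.716, 0.400 to 1.248). Hoxa3, needed for thymus and parathyroid, had 203 and 129 (0.845, 0.673 to 1.06). Both intervals include 1. Of their 50-base stretches, 12.7% (Hoxa2) and 26.3% (Hoxa3) also lie in other genes, Hoxaas2 and Hoxaas3 among them for Hoxa3. The distal limb genes Hoxa11 and Hoxa13 were below the minimum, at 0.0189 and 0.126 CPM per kb in the control library.

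HoxC was the cluster with the largest share of Hox counts in both libraries, 50.04% in the control and 59.4% in the mutant. All 9 of its genes were measured, of which 0 were called lower, 1 higher and 8 neither, with a median log2 ratio of -0.55. Its summed counts of 6418 and 4106 gave a ratio of 0.851 (0.818 to 0.885). Hoxc6, a gene of the thoracic region, had the highest Hox level per kb in the control, though Hoxc10 had more counts. Its own counts were 1720 and 663, a 1.95-fold lower level (1.78 to 2.14). Hoxc6 was called lower once trends over transcript length and GC content were removed, at a ratio of 0.4502.

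Near it, Hoxc4 had 315 and 161 counts (ratio 0.680, 0.559 to 0.825) and Hoxc5 305 and 153 (0.667, 0.546 to 0.813). Hoxc9, which sets thoracic motor neuron identity, had 1111 and 542 (0.649, 0.585 to 0.720). Between Hoxc6 and Hoxc9 lies Hoxc8, a thoracic gene, with 512 and 424 counts and a ratio of 1.10 (0.966 to 1.26). Hoxc10, which marks lumbar and hindlimb tissue, had 1850 and 1151 counts (0.828, 0.768 to 0.891), and 6.398% of its 50-base stretches lie in a transcript of Hoxc5. Hoxc11, a hindlimb gene, had 225 and 200 (1.18, 0.972 to 1.44). Hoxc12 had 17 and 7 (0.548, 0.192 to 1.39), too few for its direction to be seen at this depth.

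Hoxc13 (ENSMUSG00000001655), which controls hair and nail keratin genes, stood apart at the posterior end of HoxC. From 363 control counts it went to 805 mutant counts and was 2.95-fold higher (2.60 to 3.35). Its level of 18.8 CPM per kb in the mutant library made it the third Hox gene there, after 6.38 in the control. None of its 50-base stretches is shared with another gene. Its paralogues were near or at 0, with 7 and 1 counts of Hoxa13, 3 and 1 of Hoxd13 and 0 of Hoxb13 in both libraries.

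HoxD was measured through 3 genes, and 0 were called in either direction. Hoxd8 had 932 and 518 counts (ratio 0.739, 0.663 to 0.824) and Hoxd9, which acts with Hoxa9 in the limb, 443 and 270 (0.811, 0.694 to 0.945). Hoxd4, a gene of the hindbrain and cervical region, had 45 and 25 (0.739, 0.434 to 1.23), and 42.2% of its 50-base stretches are shared with other gene models of the locus. The median log2 ratio was -0.42, and summed counts of 1437 and 816 gave a ratio of 0.755 (0.692 to 0.824). The digit and forearm genes Hoxd10 to Hoxd13 were all below the minimum, with at most 3 counts in a library.

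Outside HoxB, the paralogues of the Hoxb4 to Hoxb9 stretch were all detected in the mutant library. With numbers 4 to 9, all 13 genes of HoxA, HoxC and HoxD were measured, of which 0 were called lower, 1 was called higher and 12 neither, with a median log2 ratio of -0.44. Their counts summed to 7446 (control) and 3795 (mutant), which gave a ratio of 0.678 (0.652 to 0.705). Over all 21 measured Hox genes outside HoxB, 0 were called lower, 2 higher and 19 neither, and the median log2 ratio was -0.42. That median is below the 0.01 of all measured genes.

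Paralogue by paralogue, the HoxB member contributed at most 18.4% of each level in the control library, except for Hoxb2 at 32.2%. Hoxb9 made up 18.4% of the summed group 9 level in the control and 1.26% in the mutant, while that sum went from 58.9 to 31.9 CPM per kb. Hoxb4 made up 11.7% of group 4 in the control and 0% in the mutant, and Hoxb8 3.95% and 0.0895% of group 8. The summed level of group 4 was 8.63 and 6.55 CPM per kb in control and mutant, and that of group 8 28.3 and 24.4. Group 6 went from 53.7 to 27.5, of which Hoxb6 had held 2.87% in the control. Group 10, which has no HoxB gene, went from 70.5 to 50.6, and group 13 from 6.56 to 18.9. Hoxb2 made up 32.2% of group 2 in the control and 56.5% in the mutant.

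**Figure D3:**
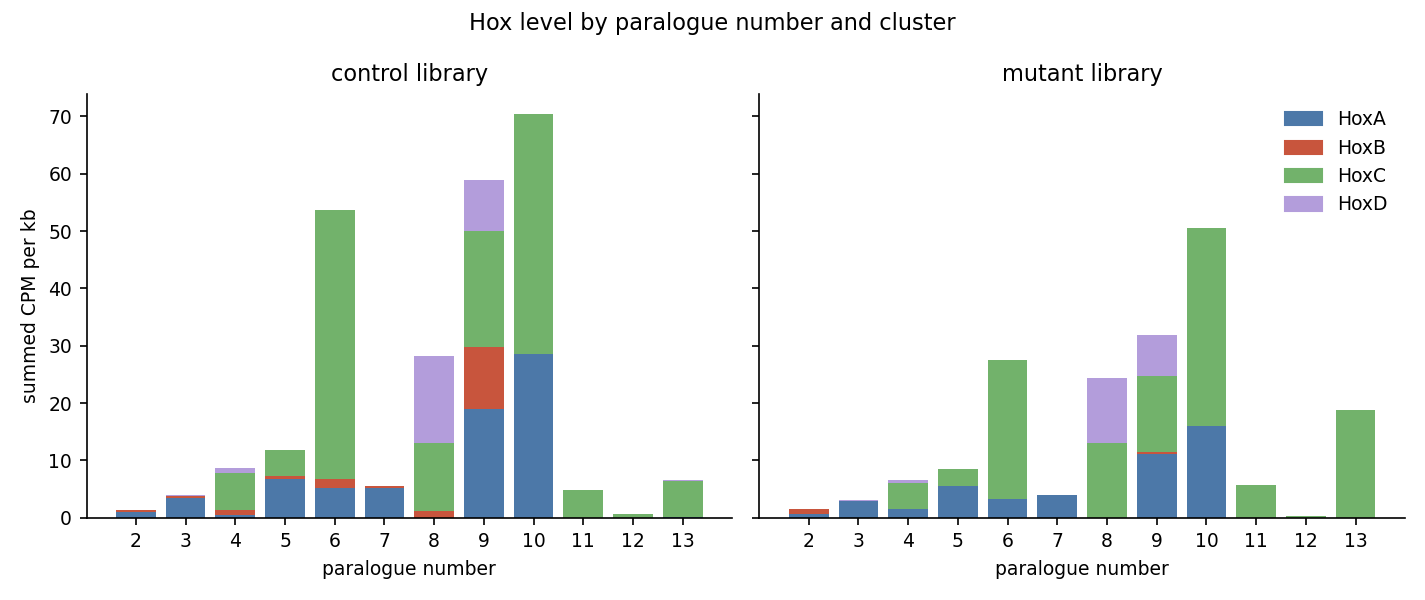
Summed level in CPM per kb by paralogue number from 2 to 13, with stacked bars coloured by cluster, for the control library on the left and the mutant library on the right. The HoxB part of the bar at number 9 shrinks from 18.4% to 1.26%, the bar at 10 is the tallest in both, and the bar at 13, nearly all HoxC, is taller in the mutant library.

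The genes on either side of HoxB had at least 615 counts in each library, apart from Hoxb3os and 3 genes near 0. Of 7 measured genes listed around the cluster (Hoxb3os included), 0 were called in either direction, and their median log2 ratio was 0.41. The shares over all measured genes, 8.29% lower and 6.98% higher, belong beside this count and those around the other clusters. On the Hoxb13 side, Atp5g1, a subunit of ATP synthase, had 1494 and 2125 counts (ratio 1.89, 1.77 to 2.02). Ube2z, a ubiquitin-conjugating enzyme, had 3881 and 3874 (1.33, 1.27 to 1.39). On the Hoxb1 side, the sorting nexin gene Snx11 had 615 and 624 counts (1.35, 1.21 to 1.51) and Cbx1, which encodes the heterochromatin protein HP1-beta, 2213 and 2261 (1.36, 1.28 to 1.44). Farther out on that side, Nfe2l1, a regulator of proteasome genes, had 8395 and 6264 (0.993, 0.960 to 1.03) and the coatomer gene Copz2 2649 and 1255 (0.630, 0.589 to 0.674). Ttll6, Calcoco2 and Skap1 were below the minimum, with 5 and 0, 0 and 1, and 0 and 7 counts.

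**Figure D4:**
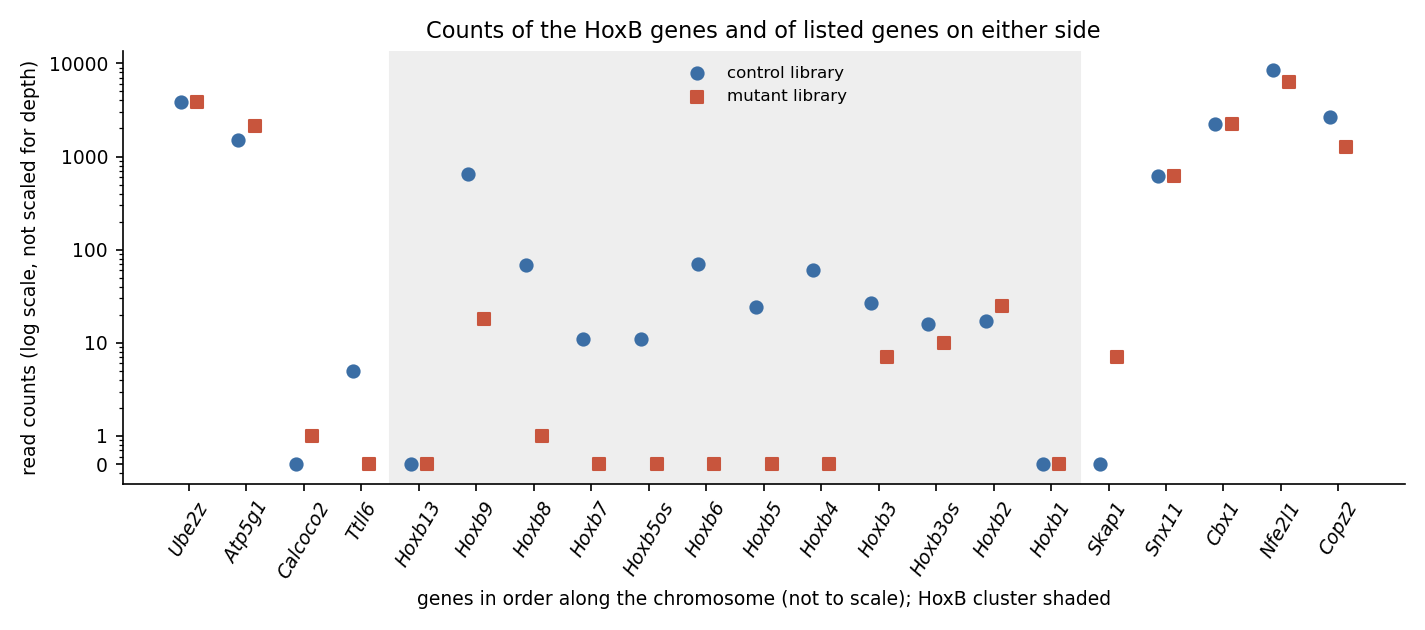
Read counts, not scaled for depth, of HoxB genes and of listed genes around the cluster, in their order along the chromosome and on a log axis with 0 counts at the bottom. Circles are the control library and squares the mutant library. Inside the shaded cluster the squares from Hoxb9 to Hoxb4 lie at 18 counts or fewer, while Atp5g1 and Snx11 on either side have 2125 and 624.

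Around the other clusters, 2 genes were called, both higher and both beside HoxC. Of 7 measured HoxC neighbours, 2 were called higher, the splicing factor gene Hnrnpa1 (12347 and 24124 counts, ratio 2.60, 2.54 to 2.66) and the ATP synthase subunit gene Atp5g2 (3230 and 5489, 2.26, 2.16 to 2.36). Cbx5, which encodes HP1-alpha, had 5670 and 8348 counts (1.96, 1.89 to 2.03), Copz1 1299 and 1899 (1.94, 1.81 to 2.09), Smug1 289 and 291 (1.34, 1.13 to 1.58) and Calcoco1 1716 and 596 (0.462, 0.420 to 0.507). Under some of the alternative scalings Calcoco1 was called lower or Atp5g2 was not called. The non-coding gene Hotair, which lies in HoxC, had 17 and 13 counts (1.02, 0.454 to 2.22).

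Of 5 measured genes in or beside HoxA and 8 in or beside HoxD, 0 were called. At HoxA, Skap2 had a ratio of 0.852, Hibadh 0.943, and the non-coding genes Hotairm1 0.775 (151 and 88 counts), Hoxaas2 0.703 (53 and 28) and Hoxaas3 0.401 (63 and 19, 0.227 to 0.679). At HoxD, the ratios ran from 0.549 for the antisense gene Hoxd3os1 (92 and 38 counts, 0.366 to 0.810) to 1.81 for Hnrnpa3. Between these lay Atf2 at 0.745, Lnpk at 0.844, Mtx2 at 1.35, Chn1 at 1.42, Nfe2l2 at 1.44 and Atp5g3 at 1.75.

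Among the DNA-binding partners of HOX proteins, the TALE homeodomain genes, none of the 5 described here was called. The PBX family members had ratios of 0.747 (0.676 to 0.826) for Pbx2 and 0.991 (0.868 to 1.13) for Pbx3. Of the MEIS family, Meis1 had 755 and 374 counts (0.659, 0.581 to 0.747) and Meis2 2452 and 1197 (0.649, 0.605 to 0.696). Pknox1 had 668 and 521 (1.04, 0.923 to 1.17).

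Of 32 Polycomb genes, all measured, 2 were called higher, 1 lower and 29 neither. Over all measured genes 6.98% were called higher and 8.29% lower, shares to be set beside this count and those of the lists below. Phf19, an accessory of Polycomb complex 2, was 2.50-fold higher (2.19 to 2.86; 339 and 638 counts), and Phc2, of complex 1, 2.47-fold higher (2.34 to 2.60; 2195 and 4071 counts). Ezh1, one of the alternative H3K27 methyltransferases, was 2.38-fold lower (2.12 to 2.67; 1269 and 401 counts). The other methyltransferase gene Ezh2 had a ratio of 1.16 (1.08 to 1.248), and the core subunit genes Eed and Suz12 had ratios of 1.54 (1.40 to 1.69) and 1.19 (1.11 to 1.28). A median log2 ratio of 0.06 for the list turned sign under scaling by total counts and without the most abundant genes.

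Of 18 Trithorax, MLL and H3K27 demethylase genes, 2 were called lower and 16 neither, and the median log2 ratio of 0.06 turned sign under the same scalings. Kdm6a, which removes the Polycomb mark H3K27me3, was 2.45-fold lower (2.21 to 2.72; 1569 and 482 counts), and Kmt2c, an H3K4 methyltransferase of enhancers, 2.39-fold lower (2.15 to 2.66; 1434 and 451 counts). Both calls were lost when trends over transcript length and GC content were removed. Kmt2a, the MLL gene that maintains Hox expression, had 3063 and 1403 counts, a ratio of 0.609 (0.572 to 0.649) that was not called.

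In the retinoic acid pathway, 2 of 9 measured genes were called lower and 7 neither, with a median log2 ratio of 0.21. Cyp26b1, the enzyme that degrades retinoic acid, had 2577 control and 270 mutant counts and was 7.18-fold lower (6.33 to 8.16). Dhrs3, which turns retinaldehyde back to retinol, had 1660 and 377, a 3.31-fold lower level (2.96 to 3.71). Both of these enzymes lower the amount of retinoic acid, which itself was not measured. Of the other factors that act above Hox genes, Cdx1, Cdx2 and Cdx4 had 0 counts in both libraries, and Gdf11, a ligand that sets the trunk-to-tail transition, was 2.90-fold lower (2.55 to 3.30; 1173 and 304 counts).

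**Figure D5:**
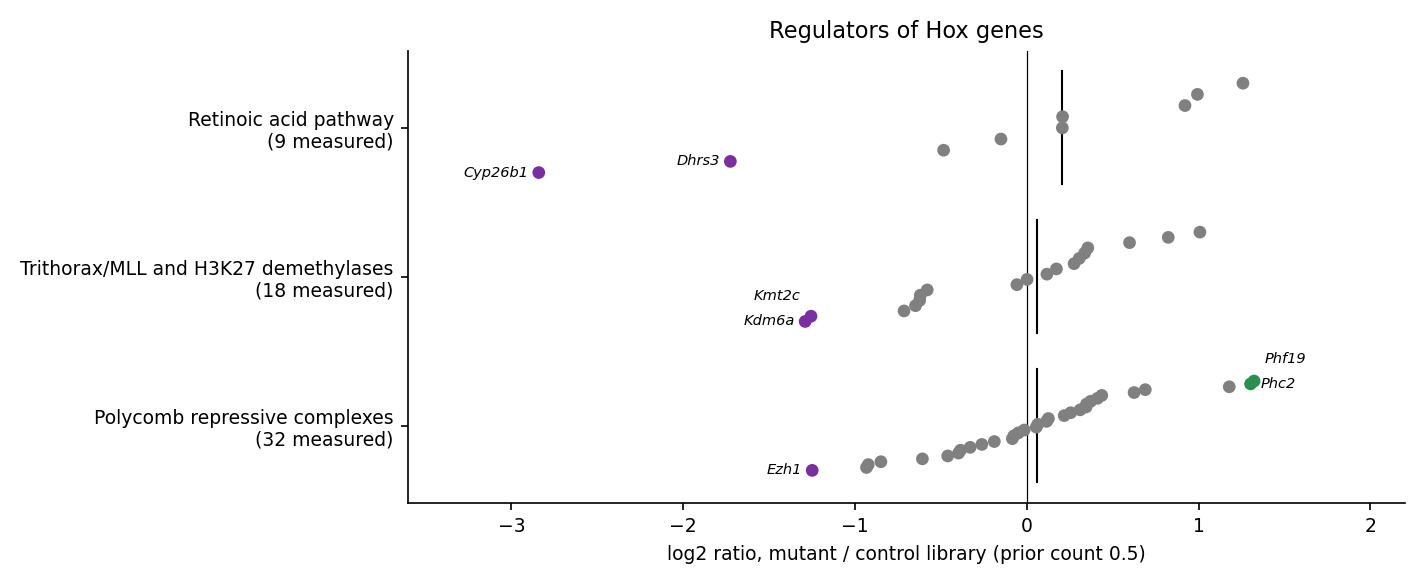
Log2 ratio of the mutant to the control library, with a prior count of 0.5, for measured genes of 3 lists of Hox regulators (Polycomb, Trithorax and retinoic acid). Each point is a gene, black bars are list medians, and named points are the genes called higher or lower, with Cyp26b1 farthest to the left and Phf19 and Phc2 to the right.

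Other homeobox and T-box genes that record position in limb and body were mixed. Of 39 listed genes, 22 were measured, of which 3 were called higher, 2 lower and 17 neither, with a median log2 ratio of -0.21. Prrx1, a limb mesenchyme factor, had 5135 and 1404 counts, a 2.75-fold lower level (2.59 to 2.92), and Barx1 had 386 and 61, a 4.76-fold lower level (3.62 to 6.34). The higher calls were on few counts and passed the minimum through the mutant library alone. Among them, Meox2 had 4 and 40 counts (ratio 13.3, 4.81 to 51.2) and Lhx9 3 and 27 (11.97, 3.68 to 61.7). The forelimb gene Tbx5 had 1 and 0 counts, and the hindlimb genes Tbx4 and Pitx1 2 and 0 and 1 and 0, so the limb of origin cannot be read from them at this depth. Of 6 genes of the related ParaHox and neighbouring homeobox families, 0 were measured and 5 were at 0 in both libraries.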

How the data were processed

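Polyadenylated RNA of sorted MSPC was measured in 1 Ptpn11+/+ and 1 Ptpn11E76K/+ library. The authors deposited a table of raw, unnormalized read counts by Ensembl identifier (35275 of them). Per the submitters' processing notes, CASAVA, TopHat, edgeR and build mm9 were used, with no version stated. The sources used here name no counter, annotation release or strand setting. The table holds 1 column per genotype, although 2 replicates are mentioned in the design text. A symbol was found for 34490 identifiers in the supplied name table. Transcript lengths, gene order and shared 50-base stretches come from GENCODE M21, which is on another build, and promoter sequences from RefSeq (GRCm38.p6).

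Library totals (22328659 and 18010963 counts) were scaled by TMM factors of 1.036 and 0.965 from edgeR 4.0.16 in R 4.3.3. With 1 library per genotype there is no replicate check, and neither a test nor a p-value is reported. Ratios have 95% exact Clopper-Pearson intervals (SciPy 1.17.1) from the split of a gene's counts, which cover counting error only. List medians use log2 ratios with a prior count of 0.5 per library. A library at 0 was set to a floor of 3 counts. The procedure was tested on simulated counts with counting error only, as the intervals assume. That simulation could not show how it handles the spread between animals. All Hox genes enter the counts and sums, and each is described except where an item is not reported here. Of each further list, those called are named, with set cofactors, core Polycomb genes, Kmt2a, measured cluster neighbours and sort markers. The members and lists were chosen with earlier results of these data known. The alternatives tried were unscaled totals, DESeq2 1.42.0 size factors, totals without the 20 most abundant genes, removal of length and GC trends, other minimums, folds, interval levels and prior counts.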

Additional observations from a re-analysis of the deposited data

How the results depend on the processing

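The 5 HoxB calls (Hoxb4, Hoxb5, Hoxb6, Hoxb8 and Hoxb9) were made under each setting run except a minimum of 100 counts, which left 1 lower HoxB gene and 1 lower Hox gene, Hoxb9. Dropping the minimum or lowering the fold threshold can only keep or add calls, so these settings could not have removed any. The upper bounds of the 5 ratios were at most 0.221, so the small shifts between scalings could hardly remove them either. A threshold of 1.5-fold gave 8 lower Hox genes, adding Hoxa9, Hoxa10 and Hoxc6. The count of higher Hox genes was 1, Hoxc13 alone, under scaling by total counts, under totals that leave out the 20 most abundant genes, with length and GC trends removed, with a minimum of 100 counts and with 99% intervals. The HoxD median was -0.53 with total counts, -0.56 without the most abundant genes, -0.52 with length and GC trends removed and -0.81 with no minimum. In the first 2 of these settings, the summed ratio of HoxA was 0.595 and 0.580 and that of HoxC 0.793 and 0.773. With the trends removed, it was 0.776 for HoxC and 0.681 for HoxD, and HoxD was at 0.686 without the most abundant genes. Of these summaries, 49 values under the alternatives stayed within the interval of the reported value (for counts, within 1.5 times) and 19 moved, none in direction. The interval of the HoxB median ran over all its measured genes, from -6.73 to 0.95, and that of the HoxA median from -0.76 to 0.34. Medians could hardly leave intervals this wide, so their staying within says little. Under each scaling 22 measured Hox genes stood below a ratio of 1 and 6 above. The cause of the shifts between settings was not tested, except that total counts and totals without the most abundant genes also put the median log2 ratio of all measured genes at -0.10 and -0.13, against 0.01. The share of calls that were higher was 45.7% (917 higher and 1090 lower) and 34.6% (709 and 1343) without the most abundant genes. In those 2 settings the medians of the Polycomb and Trithorax lists were both -0.04 and then both -0.08. Without the most abundant genes Phf19 and Atp5g2 were no longer called, and Calcoco1 was called lower there, with total counts and with the trends removed. With the trends removed, Kmt2c, Kdm6a and Atp5g2 were not called, and Cbx5, Pcgf5, Hnrnpa3 and Hoxc6 were. No paired analysis was possible because each genotype has 1 library.

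Limits of depth bear on the low genes. With 24 control counts and 0 mutant counts, the fold of Hoxb5 is 6.01 at the floor of 3 counts. Its exact bound, which includes the counting error of the control, is 4.52. The intervals of Hoxa13 and Hoxc12 include both no difference and a 2-fold lower level.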
